A study of Mus musculus with 11 samples.

Results

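CD4 T cells with the surface phenotype of memory cells were compared between bone marrow chimeras and unmanipulated mice on 5 of the 11 arrays of the series. The 3 WM IMP arrays hold cells that arose from wild-type marrow in hosts lacking MHC class II, and the 2 WT IMP arrays hold cells of unmanipulated wild-type mice. IMP is the labels' name for this population. All 17233 autosomal genes with a single gene symbol in the deposited gene table were described, of 20402 genes fitted. The 6 naive arrays (3 WT naive and 3 MW naive) served to estimate the spread. They also served for MW naive against WT naive, for its difference from WM IMP against WT IMP, and for WT IMP against WT naive.

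By the labels all mice were female C57BL/6, and the cells came from the spleen. WT mice were used at 8 weeks of age. For WM IMP, CD45.1+ WT marrow had been given to lethally irradiated CD45.2+MHCII-/- recipients, and donor cells were sorted 8 weeks later as CD45.1+, TCRβ+, CD4+ and CD44hi, with a further gate not reported here. WT IMP cells were sorted by the same markers without a CD45 allele. WT naive cells were CD44lo cells of WT mice, and MW naive cells had the same phenotype in the opposite chimera, MHCII-/- marrow in irradiated WT hosts, sorted as CD45.2+. Sorted cells were 92% to 99% pure by the labels. Irradiation, transfer, host genotype and donor CD45 allele thus all separate WM IMP from WT IMP and cannot be told apart here. The labels give no age for the chimeras, so a difference in age cannot be told apart from these either. The titles number the arrays of a group as biological replicates, and the animals behind each array are not given in the sources used here.

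T cells with a CD4 receptor are selected in the thymus on peptide bound to MHC class II. The selecting molecule is usually that of thymic epithelium, and in an MHC class II-deficient host given normal marrow it can come only from haematopoietic cells. CD4 T cells selected on haematopoietic cells are known in mice to acquire an innate memory phenotype, with high CD44 and fast cytokine release. CD44 is an adhesion receptor raised on activated and memory cells.

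Several measures moved with the groups. The labelled sex did not hold for WM IMP: the Y-linked gene Ddx3y lay between 5.43 and 5.61 on all 3 WM IMP arrays and at 0.13 and -0.02 on the WT IMP arrays, and Xist, the RNA of the silenced X, lay between -7.44 and -6.38 against 0.00 and 0.20. Sex and group cannot be told apart. The controls added at hybridization averaged 3.17, 2.07 and 1.62 on the WM IMP arrays and 0.47 and 0.45 on the WT IMP arrays (a fit with them as a covariate is given below). The actin 5′ minus 3′ difference was -0.89, -1.89 and -2.42 on WM IMP and -1.22 and -0.12 on WT IMP. That of Gapdh was 0.56, -2.71 and -1.69 against -4.23 and -0.27, so the WT IMP arrays lay far apart. WM IMP 1 stood apart, with correlations across genes of 0.61 to 0.75 with the other 4 arrays, while WT IMP 1 and 2 correlated at 0.89 and WM IMP 2 and 3 at 0.87. Of the sorting and lineage genes, Cd3e read -0.08 and -0.15 on WT IMP and -0.11, -0.21 and 0.09 on WM IMP. Cd44 read 2.77 and 2.68 against 2.22, 2.59 and 2.67, and Cd4 read -1.14 and -1.01 against -0.22, -1.28 and -0.50. None of these passed the test, and the raised Cd44 of all 5 arrays relative to naive cells is what the gate selects. All values are the authors' log2 values with the average WT naive array set to 0 for each gene, so no absolute level is known.

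Between WM IMP and WT IMP, 291 of the 17233 autosomal genes (1.69%) were called at an adjusted p under 0.05 by limma, with p-values adjusted over all genes fitted. More fell than rose: 209 (1.21%) were lower and 82 (0.476%) higher in WM IMP, and 109 and 43 of them differed at least 2-fold. Higher genes made up 28.2% of the calls here and 16.2% of the 210 calls made with the mean of the RMA probe sets of a gene. All 291 were free of overlap between the groups' arrays, as were 11.1% of all autosomal genes on the higher side and 20.6% on the lower side. The median difference over all autosomal genes was -0.05. Among the called lower genes, 36 had been at least 1 log2 unit above naive cells in WT IMP and lay within 1 unit of naive cells in WM IMP, while 79 lay within 1 unit of naive cells in WT IMP and at least 1 unit below them in WM IMP. Among the called higher genes, 41 lay within 1 unit of naive cells in WT IMP and at least 1 unit above them in WM IMP.

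The calls rested on the pair of WT IMP arrays. Without WT IMP 1, 62 genes were called, and without WT IMP 2 there were 10, among them Ppfia4, Rps4l, Jun, Rnpep, Bambi-ps1, Nek6, Pik3ap1, Itgae and Ctse. Leaving out WM IMP 2 raised the count to 792, and leaving out any of the WT naive arrays or MW naive 1 or 2 lowered it to between 117 and 182. Ctse, Pik3ap1, Itgae, Ppfia4, Jun, Nek6 and Bambi-ps1 kept their call whichever of the 11 arrays was left out. Every other gene given below as risen or fallen lost its call without WT IMP 1, WT IMP 2 or both. Many of them lost it without other arrays too, naive arrays among them. With 1 array left out, Btg2, Ctsl, Mt1 and Siglecg kept their call in 1 of the 11 fits. Ccr7, Il4, Sostdc1 and Sox4 kept it in 2, and Fos, Dapl1, Dusp4, Plk1 and Eif2d in 3. With the hybridization controls as a covariate 4 genes were called, Ctse and Pik3ap1 among them. With the actin 5′ minus 3′ difference as a covariate 95 of the 291 kept their call. Klrk1, Stk25, Il4, Cd40, Ltb4r1, Egr1 and Itgb1 were among those that lost it. Controls for poly-A RNA were high on 1 array of each group. With that split as a block 201 genes were called, and on the arrays with low controls alone 12 were, while the arrays with high controls hold no replicates. The direction of the difference was the same for all 291 genes in each alternative fit to this table, and 4 of the 291 had the opposite sign in the mean of the RMA probe sets. There 132 of the 291 were called, and of the genes described below Cxcr4, Ikzf4, Sostdc1, Dusp4, Siglecg, Sash1, Mt1, Vcam1, Ctsl, Zfp950, Eif2d and Rabif were not, besides those marked in their paragraphs.

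**Figure D1:**
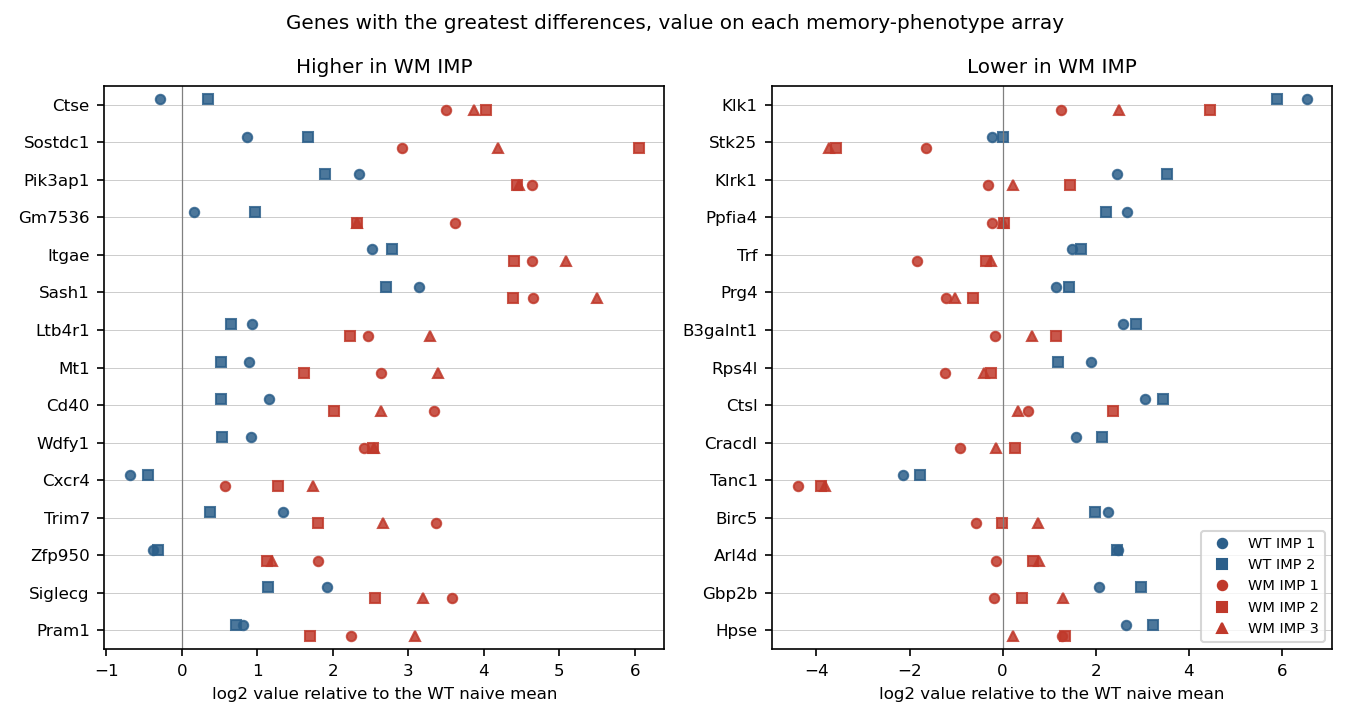
The 15 called autosomal genes that rose most and the 15 that fell most, as the authors' log2 value relative to the WT naive mean (horizontal axis) on each of the 5 memory-phenotype arrays (blue, WT IMP; red, WM IMP; the symbol gives the replicate). No gene has overlapping groups, by the way the genes were chosen, and the WM IMP arrays of Klk1 and Sostdc1 lie widest apart.

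Of 19 autosomal genes listed as naive or lymphoid homing, 5 fell in WM IMP, 0 rose and 14 did not pass, and the median difference was -0.31 beside -0.05 over all genes. The fall was not uniform: by sign 16 were lower and 3 higher, and at an unadjusted p under 0.05, 8 were lower and 1 higher. Ccr7, the chemokine receptor for entry into lymphoid tissue, read -2.07 and -2.20 on the WT IMP arrays and -3.94, -2.84 and -3.31 on the WM IMP arrays. It was thus below naive cells on all 5 arrays and lowest on the WM IMP arrays (log2 difference -1.23 ± 0.25 SE, adjusted p = 0.0402). Actn1, an actin crosslinker, fell by 1.37 and Rapgef4, an exchange factor for the small GTPase Rap, fell by 1.26. Dapl1, a gene with high RNA in naive T cells, read -3.01 and -3.56 on WT IMP and -4.04, -4.33 and -4.76 on WM IMP, without overlap (-1.10 ± 0.22, adjusted p = 0.0365). In the RMA probe sets the calls of Actn1 and Rapgef4 were lost, and 1 of 3 probe sets of Actn1 (-1.91) and 1 of 2 of Rapgef4 (-1.47) carried the difference.

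Of 15 integrin genes, Itgae rose and Itgb1 fell. Itgae encodes CD103, the integrin chain that binds E-cadherin on epithelial cells and is known from tissue-resident and some regulatory T cells. It read 2.52 and 2.79 on WT IMP and 4.63, 4.40 and 5.08 on WM IMP. All 3 WM IMP arrays lay above both WT IMP arrays by more than the spread within either group, a 4.15-fold difference (log2 2.05 ± 0.23, adjusted p = 0.00244), which kept its call in each fit with 1 array left out. Of its 2 probe sets, 1 gave 2.14 and was called and the other gave 0.76 and was not. Itgb1, the integrin chain shared by fibronectin and collagen receptors, went the other way, with 2.03 and 2.74 on WT IMP and 0.99, 1.28 and 0.46 on WM IMP (-1.47 ± 0.28, adjusted p = 0.0298). Among 6 probe sets of Itgb1, 1 was called (-2.15), and the mean of the RMA probe sets lost the call. The other integrin genes did not pass.

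Ltb4r1, the receptor of the lipid attractant leukotriene B4, read 0.93 and 0.66 on WT IMP and 2.46, 2.22 and 3.29 on WM IMP, higher on every WM IMP array (1.87 ± 0.30, adjusted p = 0.0145). Cxcr4, the receptor of the chemokine CXCL12, was below the naive mean on both WT IMP arrays (-0.69 and -0.45) and above it on the WM IMP arrays (0.57, 1.28 and 1.73), a difference of 1.76 ± 0.36 (adjusted p = 0.0386). Cxcr4 was also called higher in MW naive against WT naive cells, by 2.14 ± 0.32 (adjusted p = 0.00805). The means of that contrast share no array with this comparison, but both calls use a spread estimated over all arrays. The list of chemokine and lipid homing receptors held 18 autosomal genes, of which 1 rose (Cxcr4), 1 fell and 16 did not pass.

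**Figure D2:**
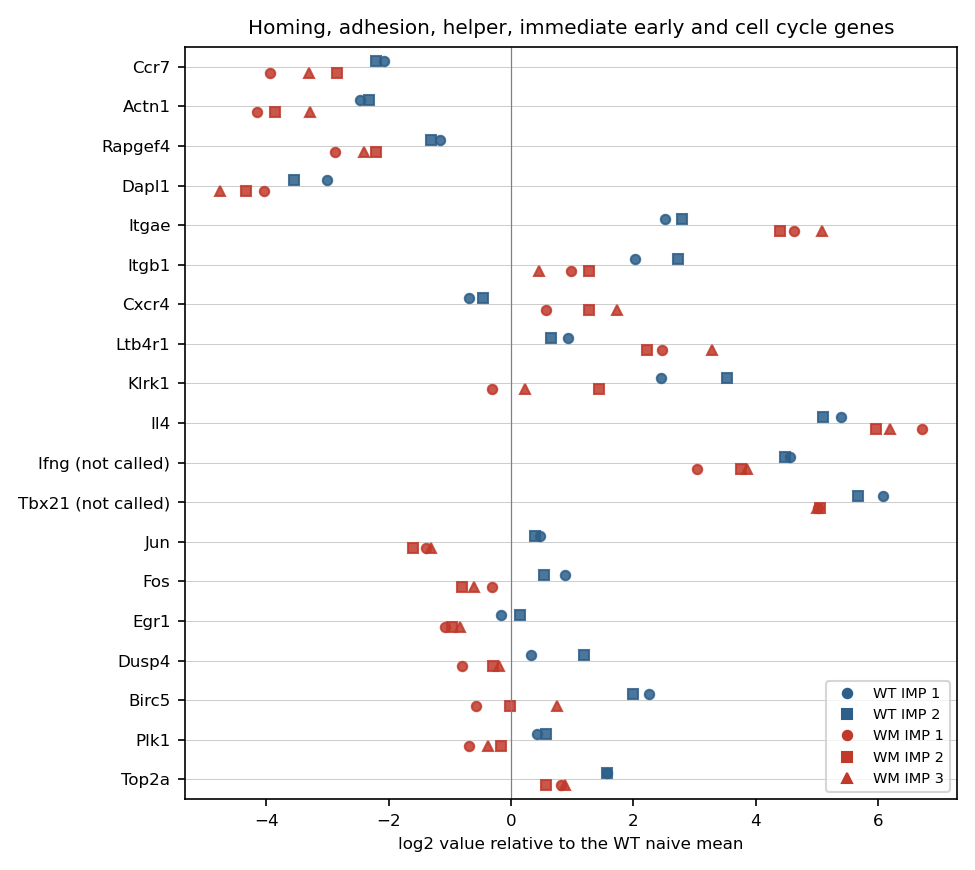
Log2 value relative to the WT naive mean (horizontal axis) of genes of homing, adhesion, T helper function, immediate early response and cell cycle on each of the 5 memory-phenotype arrays (blue, WT IMP; red, WM IMP). Ccr7 lies below 0 on all arrays and lowest in WM IMP, Jun, Fos and Egr1 lie below 0 on the WM IMP arrays, and the genes marked as not called missed the adjusted p of 0.05.

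Among the cytokines of helper T cells, Il4 rose. It encodes interleukin 4, the signature cytokine of T helper 2 and of several innate-like T cells, and read 5.40 and 5.10 on WT IMP and 6.72, 5.97 and 6.19 on WM IMP. Both groups were thus far above naive cells, with WM IMP 2.06-fold higher (log2 1.05 ± 0.22, adjusted p = 0.0408). The call was lost in 9 of the 11 fits with 1 array left out, where the difference ranged from 0.83 to 1.21, and in the RMA mean. Gata3, the transcription factor of T helper 2 cells, was at 0.69 and 0.75 against 0.54, 0.50 and 0.48 and did not pass. Il4 was the 1 of 18 T helper 2 genes that passed, and the median of that list was -0.20.

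Ifng, encoding interferon gamma, the signature cytokine of T helper 1 cells, read 4.56 and 4.49 on WT IMP and 3.03, 3.76 and 3.86 on WM IMP, without overlap (-0.97 ± 0.22, adjusted p = 0.0541). Tbx21, encoding T-bet, read 6.08 and 5.68 against 5.02, 5.05 and 5.001 (-0.86 ± 0.31, adjusted p = 0.188), and Cxcr6, a chemokine receptor of effector cells, 6.38 and 6.49 against 5.34, 5.22 and 5.25 (-1.16 ± 0.28, adjusted p = 0.0641). Of 19 autosomal genes on the T helper 1 list, 1 fell, 0 rose and 18 did not pass. At an unadjusted p under 0.05, 9 of the 19 were lower and 0 higher, where 11.6% of all autosomal genes were lower and 5.56% higher. These shares are the background for the unadjusted counts of every other list too. The median of the genes' differences was -0.45, while the list's medians per array overlapped, with 1.08 and 1.69 on WT IMP and 1.72, 1.03 and 2.07 on WM IMP.

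The T helper 17 list had a median of 0.41 over 13 genes, with medians per array of 0.88 and 0.81 on WT IMP and 2.06, 2.22 and 1.34 on WM IMP. Ltb4r1 was the member that passed. At an unadjusted p under 0.05, 6 were higher and 0 lower. Among them Ccr6, the receptor of the chemokine CCL20, differed by 0.99 ± 0.32 (adjusted p = 0.143) and Ahr, a ligand-activated transcription factor, by 0.77 ± 0.24 (adjusted p = 0.137). Il17a itself read -0.26 and 0.14 on WT IMP and 0.55, 0.01 and 0.48 on WM IMP, with overlap.

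Of 18 autosomal genes of the regulatory T cell list, Ikzf4 and Itgae rose, 0 fell and 16 did not pass, with a median of 0.22. By sign 12 of the 18 were higher and 6 lower, and at an unadjusted p under 0.05, 6 were higher and 1 lower. Ikzf4 encodes Eos, a partner of the regulatory T cell factor Foxp3, and read 0.50 and 0.43 on WT IMP and 1.66, 1.20 and 1.495 on WM IMP (0.99 ± 0.16, adjusted p = 0.0162). The related Ikzf2, encoding Helios, was at 2.93 and 2.75 against 3.40, 3.98 and 3.73 (0.87 ± 0.21, adjusted p = 0.0613), and Tnfrsf4, encoding the costimulatory receptor OX40, differed by 0.80 ± 0.18 (adjusted p = 0.052). Of the 6 lower members, Gpr83 differed by -1.35 and did not pass. Il2ra, also lower, read 0.61 and 1.08 on WT IMP and 0.98, 0.24 and 0.49 on WM IMP, with overlap. Foxp3 lies on the X chromosome and is given only as a check: it read 1.96 and 1.80 on WT IMP and 2.86, 2.42 and 2.90 on WM IMP (0.84 ± 0.19, adjusted p = 0.0512). In sorted populations a change in the share of a cell type and a change in the RNA per cell cannot be told apart.

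Sostdc1, a secreted antagonist of BMP and Wnt signals and a member of the follicular helper list, was the second of the rising genes by size. It read 0.87 and 1.67 on WT IMP and 2.92, 6.05 and 4.18 on WM IMP, so the WM IMP arrays were widely spread, and the difference of 3.12 ± 0.65 (adjusted p = 0.0405) ranged from 2.28 to 3.85 with 1 array left out. Bcl6, the transcription factor of follicular helper cells, read 0.51 and 0.38 against 0.51, 1.24 and 0.56 and did not pass. No other of the 17 autosomal members of the list passed.

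Klrk1 encodes NKG2D, an activating receptor of natural killer cells and of CD8 and innate-like T cells. It read 2.45 and 3.54 on WT IMP and -0.31, 1.44 and 0.23 on WM IMP, near the level of naive cells on 2 of the 3 WM IMP arrays, a 5.83-fold difference (log2 -2.54 ± 0.44, adjusted p = 0.0192). It was the 1 of 17 genes of the innate-like T cell list that passed. Zbtb16, encoding PLZF, the factor of innate-like T cells, was raised on all 5 arrays, with 3.36 and 3.06 on WT IMP and 2.64, 2.35 and 3.50 on WM IMP, and the groups overlapped. S1pr5, a receptor that guides natural killer cells out of tissue, read 0.90 and 1.86 against -0.65, 0.37 and 0.00 (-1.47 ± 0.33, adjusted p = 0.0509). Klrg1, a receptor of terminally differentiated effector cells, read 3.88 and 4.68 against 5.36, 5.24 and 5.39 (1.05 ± 0.26, adjusted p = 0.0689). Cd8a read 0.63 and 0.44 against 2.45, 0.44 and 1.60, and Hpse, encoding the matrix-degrading enzyme heparanase, fell from 2.66 and 3.24 to 1.29, 1.34 and 0.23 (-1.997 ± 0.34, adjusted p = 0.0173). The 16 genes of the cytotoxic granule list gave 0 calls by limma, with 3 higher and 3 lower at an unadjusted p under 0.05.

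Of 28 immediate early genes of antigen receptor signalling, Jun, Fos, Egr1 and Dusp4 fell in WM IMP, 0 rose and 24 did not pass. Jun and Fos encode the subunits of the transcription factor AP-1, and both fell below the level of naive cells. Their RefSeq promoter sequences (GRCm38.p6, 250 bases before to 50 after the start) are shown because the genes moved together. Capitals mark matches on either strand to TGACNTCA, a pattern of elements bound by AP-1 and ATF dimers, or to TGACGT, the core of the cyclic AMP response element. A site can match both patterns at once, and none does in these windows.
Jun, chr4:95052173-95052472, minus strand: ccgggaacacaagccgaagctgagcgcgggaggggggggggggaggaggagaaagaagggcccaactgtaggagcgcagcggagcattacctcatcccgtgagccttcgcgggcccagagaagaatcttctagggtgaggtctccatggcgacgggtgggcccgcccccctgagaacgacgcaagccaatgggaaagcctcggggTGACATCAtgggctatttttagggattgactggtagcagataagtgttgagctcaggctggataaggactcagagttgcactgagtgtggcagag
Fos, chr12:85473640-85473939, plus strand: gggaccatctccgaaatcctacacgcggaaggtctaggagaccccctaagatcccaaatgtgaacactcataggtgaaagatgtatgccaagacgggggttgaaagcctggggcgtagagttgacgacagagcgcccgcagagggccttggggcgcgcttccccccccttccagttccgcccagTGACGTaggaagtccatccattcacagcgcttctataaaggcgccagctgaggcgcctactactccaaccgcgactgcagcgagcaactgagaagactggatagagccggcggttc
The first pattern has 1 match in the Jun window and 0 in that of Fos, and the second has 1 in that of Fos and 0 in that of Jun. Of 32851 RefSeq promoter windows of the same length, 8.83% hold the first and 7.51% the second, so a match describes the sequence and is no evidence of binding.

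Jun read 0.48 and 0.40 on the WT IMP arrays and -1.38, -1.60 and -1.31 on the WM IMP arrays. The gap between the groups was several times the spread within either, a 3.66-fold fall (log2 -1.87 ± 0.20, adjusted p = 0.00231) that kept its call whichever array was left out. Fos read 0.89 and 0.54 against -0.32, -0.79 and -0.60 (-1.28 ± 0.28, adjusted p = 0.0467). Egr1, a zinc finger factor induced within minutes of receptor signalling, read -0.16 and 0.15 against -1.09, -0.96 and -0.83 (-0.95 ± 0.17, adjusted p = 0.0263), and Dusp4, a phosphatase of MAP kinases, 0.32 and 1.19 against -0.79, -0.29 and -0.20 (-1.18 ± 0.24, adjusted p = 0.04). The median difference of the list was -0.29, with 17 members lower and 11 higher. Nr4a1, which reports the strength of receptor signals, was at 0.10 and 0.54 against 0.00, -0.12 and -0.07 and did not pass, nor did Egr2, at 0.96 and 1.06 against 1.02, 1.10 and 1.29. Btg2, an antiproliferative gene of the p53 list, fell with them (-1.35 ± 0.29, adjusted p = 0.0471). In MW naive against WT naive cells, Jun (-1.44), Egr1 (-1.59), Dusp4 (-1.27) and Btg2 (-1.42) were also called lower and Fos (-0.41) was not called. The means of that contrast share no array with this comparison, but the same fit estimated the spread for both.

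The 20 genes of the T cell receptor complex and its proximal signalling gave 0 calls by limma. At an unadjusted p under 0.05, 8 were lower and 0 higher, and 19 of the 20 had a negative difference, with a median of -0.38. The marker list of T cells behaved alike, with 0 calls among 11 genes, 4 lower at an unadjusted p under 0.05 and medians per array of -0.10 and -0.09 on WT IMP and -0.81, -0.13 and -0.45 on WM IMP. Several genes are on both lists.

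Of 33 autosomal cell cycle genes, Birc5, Plk1 and Top2a fell in WM IMP, 0 rose and 30 did not pass. Birc5, encoding the mitotic regulator survivin, read 2.26 and 1.995 on WT IMP and -0.57, -0.01 and 0.76 on WM IMP, a 4.20-fold difference (log2 -2.07 ± 0.32, adjusted p = 0.0133). Plk1, a mitotic kinase, fell by 0.91 ± 0.19 (adjusted p = 0.0379), and Top2a, the topoisomerase that untangles replicated DNA, read 1.57 and 1.56 against 0.81, 0.58 and 0.88 (-0.81 ± 0.16, adjusted p = 0.0331). At an unadjusted p under 0.05, 15 of the list were lower and 2 higher, and the list median was -0.50. Ccna2, encoding cyclin A2, differed by -1.05 ± 0.33 (adjusted p = 0.136) and Mki67, the proliferation marker, read 3.11 and 3.57 against 3.13, 2.97 and 2.67, with overlap. In the RMA mean the calls of Plk1 and Top2a were lost.

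Of 32 autosomal interferon-stimulated genes, 0 were called by limma and 16 were lower and 2 higher at an unadjusted p under 0.05, with a list median of -0.47. Medians per array were 0.31 and 0.43 on WT IMP and -0.12, 0.13 and -0.41 on WM IMP, and Oas3, which encodes a sensor of viral RNA, differed by -1.41 ± 0.35 (adjusted p = 0.0725). Gbp2b, an interferon-induced GTPase outside that list, fell from 2.06 and 2.98 to -0.18, 0.42 and 1.31 (-2.01 ± 0.37, adjusted p = 0.0263). Of 21 genes of sterol and fatty acid synthesis, 0 were called and 7 were lower and 0 higher at an unadjusted p under 0.05, with a median of -0.44. Sc5d, an enzyme late in cholesterol synthesis, differed by -1.13 ± 0.25 (adjusted p = 0.0512).

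Of 18 genes of the heat shock and stress list, Gadd45b rose, Hmox1 and Hspa1a fell and 15 did not pass. Hmox1, encoding haem oxygenase, read 0.84 and 0.86 on WT IMP and -0.14, -0.08 and -0.09 on WM IMP, with tight replicates (-0.95 ± 0.11, adjusted p = 0.00333). The chaperone gene Hspa1a fell by 0.96 ± 0.16 (adjusted p = 0.0163), while Gadd45b, a stress-induced activator of MAP kinase pathways, rose by 1.03 ± 0.21 (adjusted p = 0.0375). Outside that list, Mt1, encoding the zinc-binding metallothionein, rose from 0.89 and 0.52 to 2.64, 1.62 and 3.39 (1.84 ± 0.39, adjusted p = 0.0409). It lost its call in 10 of the 11 fits with 1 array left out.

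Pik3ap1, encoding the adaptor BCAP that links receptors to phosphoinositide 3-kinase, read 2.35 and 1.90 on WT IMP and 4.63, 4.44 and 4.47 on WM IMP. The WM IMP arrays lay close together and each far above both WT IMP arrays, a 5.25-fold difference (log2 2.39 ± 0.16, adjusted p = 3.32e-05). It kept its call in all 26 alternative settings. Of its 2 probe sets, 1 gave 2.33 and the other 0.00. Cd40, the costimulatory receptor of antigen-presenting cells, read 1.16 and 0.52 against 3.34, 2.02 and 2.63 (1.83 ± 0.34, adjusted p = 0.0263). Spi1, encoding the myeloid and B cell factor PU.1, read 1.59 and 1.19 against 3.23, 2.45 and 3.01 (1.51 ± 0.27, adjusted p = 0.0231), and Siglecg, an inhibitory receptor of B cells, 1.92 and 1.15 against 3.58, 2.56 and 3.20 (1.58 ± 0.34, adjusted p = 0.0432). Sash1, a scaffold protein, rose by 1.92 ± 0.29 (adjusted p = 0.0117).

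Of 15 autosomal B cell markers 0 were called by limma, 7 were higher and 0 lower at an unadjusted p under 0.05, and 13 of 15 differences were positive, with a median of 1.16. Array medians of the list were 0.49 and -0.28 on WT IMP and 2.77, 0.99 and 0.85 on WM IMP, highest on WM IMP 1. Ms4a1, encoding CD20, read -0.13 and -0.52 against 2.69, 0.85 and 1.13 (adjusted p = 0.0857), and Cr2, a complement receptor of B cells, 0.49 and -0.62 against 4.16, 1.10 and 1.62. Cd40, Spi1 and Siglecg were likewise highest on WM IMP 1, and Pik3ap1 differed little between the WM IMP arrays. The 9 genes of MHC class II presentation gave 0 calls, with 2 higher and 0 lower at an unadjusted p under 0.05 and all 9 differences positive (median 0.57). The part of B cells in the rise of Pik3ap1, Cd40, Spi1 and Siglecg was not tested.

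**Figure D3:**
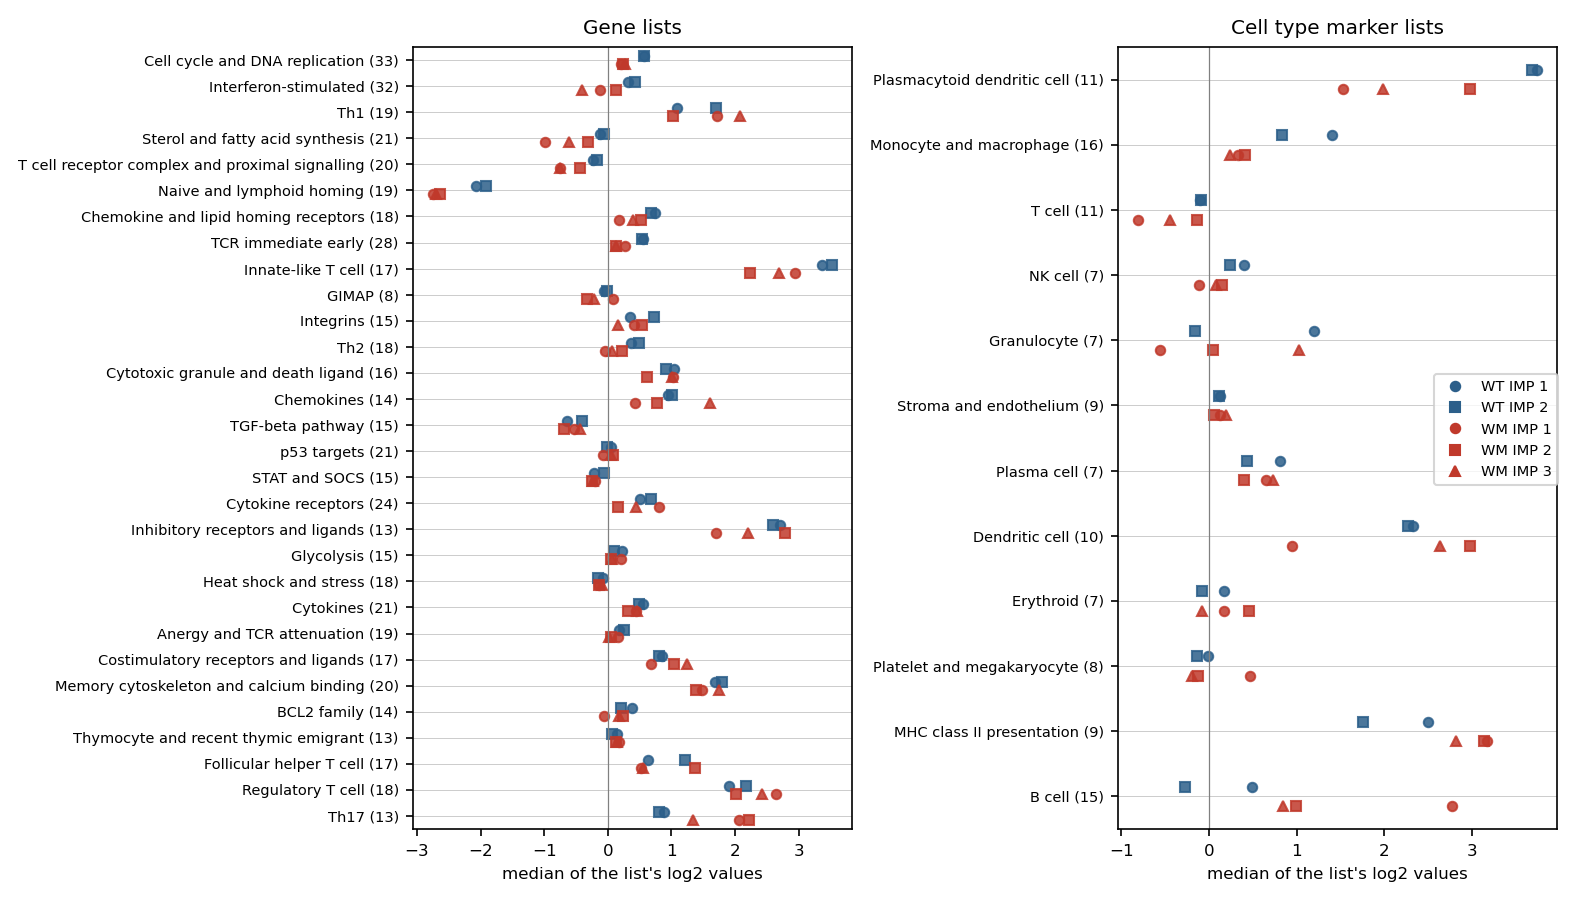
Median log2 value relative to the WT naive mean (horizontal axis) over the autosomal members of each list of at least 7 genes (number in brackets) on each of the 5 memory-phenotype arrays (blue, WT IMP; red, WM IMP), for gene lists on the left and cell type markers on the right. Plasmacytoid dendritic cell markers lie lower and B cell markers higher on the 3 WM IMP arrays, most so on WM IMP 1.

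Of 11 markers of plasmacytoid dendritic cells, which make type I interferon, Klk1 and Irf8 fell and 0 rose. Klk1, a kallikrein protease, fell furthest of all called genes: 6.53 and 5.90 on WT IMP against 1.25, 4.45 and 2.49 on WM IMP (-3.49 ± 0.66, adjusted p = 0.0294), with WM IMP 1 lowest and WM IMP 2 nearest to WT IMP. Irf8, the transcription factor of dendritic cell development, fell from 3.87 and 3.88 to 2.22, 2.98 and 2.22 (-1.40 ± 0.23, adjusted p = 0.017). Siglech, a defining receptor of these cells, read 5.29 and 5.37 against 2.27, 4.92 and 3.11 (adjusted p = 0.121), and Upb1, another of the list, 4.54 and 4.62 against 0.24, 3.93 and 1.73 (adjusted p = 0.108). Of the list, 8 were lower at an unadjusted p under 0.05 and all 11 differences were negative, with a median of -1.40. Array medians were 3.74 and 3.68 on WT IMP and 1.53, 2.98 and 1.99 on WM IMP.

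Of 16 markers of monocytes and macrophages, Vcam1 fell, 0 rose and 8 were lower and 1 higher at an unadjusted p under 0.05, with a median of -0.72. Vcam1, an adhesion molecule of splenic macrophages and endothelium, read 0.65 and 0.69 against -0.81, -0.32 and -0.47 (-1.21 ± 0.17, adjusted p = 0.0069), and C1qb, a complement subunit, differed by -1.09 ± 0.27 (adjusted p = 0.0707). Cdh5, encoding the endothelial cadherin, read 1.96 and 2.11 on WT IMP and -0.23, 0.30 and 0.45 on WM IMP (-1.86 ± 0.22, adjusted p = 0.00288), and 1 of its 2 probe sets carried the difference (-2.18). It was the 1 of 9 stromal and endothelial markers that passed, and the list's array medians stayed between 0.06 and 0.20 in both groups. Ctsl, a lysosomal protease, fell from 3.07 and 3.44 to 0.55, 2.38 and 0.34 (-2.17 ± 0.46, adjusted p = 0.0431), with the order of the WM IMP arrays differing from that of Klk1 only in which of WM IMP 1 and 3 was lowest. The part of these cell types in the fall of genes was not tested.

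A larger share of the genes close to Ptprc was called than of all genes, a count given without a test. Ptprc encodes CD45, and the labels name the CD45.1 allele for the marrow of WM IMP and none for WT mice. Congenic CD45.1 mice carry a stretch of chromosome 1 from another strain, as background. Of 136 autosomal genes whose start lies within 10 Mb of Ptprc, 10 were called (7.35%, against 1.69% of all autosomal genes), 4 higher and 6 lower, and all 10 lie among the 109 genes before Ptprc. Within 20 Mb it was 13 of 237 (5.49%), and on chromosome 1 beyond 20 Mb it was 21 of 830 (2.53%). The share near Ptprc was above the share over all genes in each of the 26 alternative settings, with 2 genes near Ptprc called without WT IMP 1, 3 without WT IMP 2 and 1 with the hybridization controls as a covariate. In MW naive against WT naive, 4 of the 136 were called (2.94%, against 3.35% of all), Cxcr4, Btg2 and Rnpep among them. Its means share no array with this comparison, but its spread came from the same fit. In WT IMP against WT naive, for which the labels name no CD45 allele, 18 of the 136 were called (13.2%, against 9.12% of all). That contrast shares the WT IMP arrays with this comparison. The median absolute difference of WM IMP minus WT IMP was 0.196 near Ptprc and 0.201 over all genes.

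Ctse, which encodes the endosomal protease cathepsin E, lies at chr1:131638314-131675507 (GRCm38.p6) and rose furthest of all called genes. It read -0.29 and 0.35 on WT IMP, near naive cells, and 3.50, 4.02 and 3.86 on WM IMP, a 13.6-fold difference (log2 3.77 ± 0.27, adjusted p = 7.69e-05) called in all 26 alternative settings. Ppfia4, encoding liprin alpha 4, a scaffold of cell contacts, lies at chr1:134296783-134344756 and went the opposite way, from 2.67 and 2.22 to -0.22, 0.02 and 0.01, which is the level of naive cells (-2.51 ± 0.22, adjusted p = 0.000447). Of its 3 probe sets, 2 gave -3.01 and -3.76 and the third -0.24. The other called genes of this stretch were Cxcr4 and Btg2 (above), Eif2d, a translation factor (0.84 ± 0.16), Atp2b4, a calcium pump of the plasma membrane (1.03 ± 0.16), Rnpep, an aminopeptidase (-1.51 ± 0.19), Gpr25, an orphan receptor (-1.28 ± 0.19), Lad1 (-1.11 ± 0.19) and Rabif (-0.81 ± 0.14). Donor allele and group cannot be told apart, since no WT IMP array is labelled CD45.1+.

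**Figure D4:**
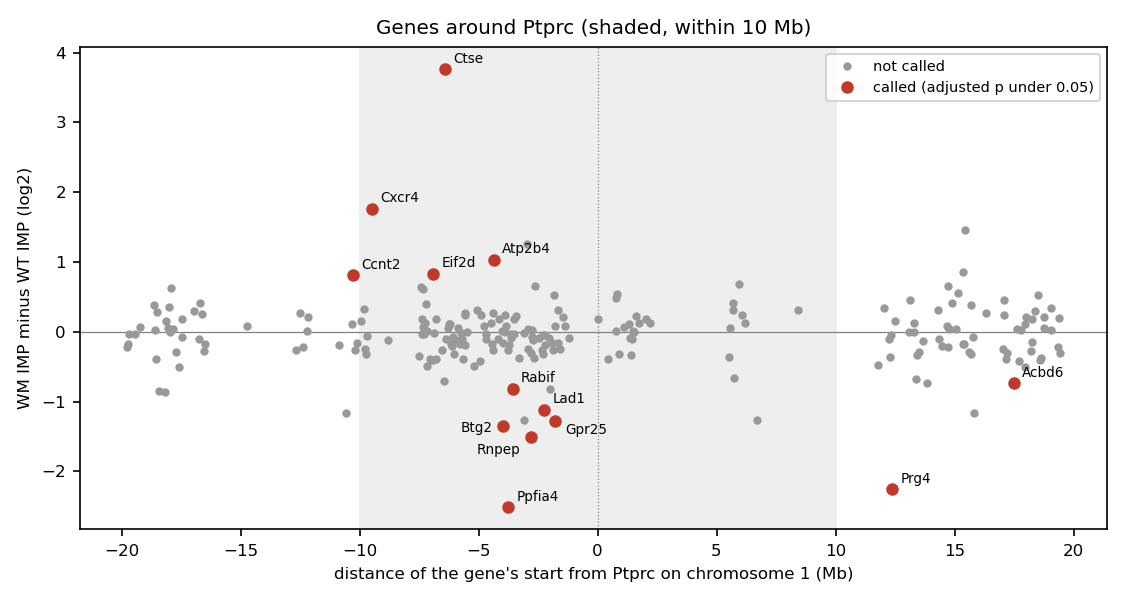
Log2 difference of WM IMP minus WT IMP (vertical axis) for each autosomal gene against the distance of its start from Ptprc in Mb (horizontal axis), with called genes in red and the 10 Mb on either side shaded. The 10 called genes in the shaded stretch all lie before Ptprc, with Ctse at 3.77 and Ppfia4 at -2.51 as the extremes.

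Further genes among those with the greatest differences are on none of the gene and marker lists. Prg4, on chromosome 1, is among the 13 genes called within 20 Mb of Ptprc. Stk25, a kinase of Golgi and cell polarity, read -0.23 and 0.01 on WT IMP and -1.65, -3.59 and -3.74 on WM IMP, so that WM IMP 1 lay about midway between WT IMP and the other 2 arrays (-2.88 ± 0.49, adjusted p = 0.0187). Trf, encoding the iron carrier transferrin, fell by 2.40 ± 0.44, Prg4, encoding the lubricant proteoglycan 4, by 2.25 ± 0.28, and B3galnt1, a glycosyltransferase, by 2.19 ± 0.31. Rps4l, a ribosomal protein gene copy, fell by 2.17 ± 0.29, and sharing of signal with its close relatives cannot be told from these values. Tanc1, a scaffold gene, was already below naive cells in WT IMP (-2.15 and -1.77) and lower still in WM IMP (-4.41, -3.91 and -3.82). On the rising side, Wdfy1, an endosomal adaptor of Toll-like receptor signalling, read 0.91 and 0.53 against 2.42, 2.53 and 2.55 (1.78 ± 0.19, adjusted p = 0.00231), and Zfp950, a zinc finger gene, -0.39 and -0.32 against 1.80, 1.13 and 1.19 (1.73 ± 0.20, adjusted p = 0.00266). For Wdfy1, 1 of 5 probe sets was called (2.04), and for Zfp950, 1 of 3 (1.77).

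Whether chimeras differ from unmanipulated mice in the same way in naive cells was asked with the contrast of MW naive against WT naive, whose chimera is built the other way round. Donor and host genotype and the sorted CD45 allele thus differ between the chimeras. The sex signal differs too: Xist averaged 0.29 and Ddx3y 0.01 on MW naive, against -6.92 and 5.51 on WM IMP. A difference between the contrasts therefore cannot be assigned to IMP against naive cells alone. In MW naive against WT naive 578 autosomal genes (3.35%) were called. Of the 291 genes called between the IMP groups, 67 were called there too, all in the same direction, which is 23.0% of the 291 and 11.6% of the 578. Both sets of calls use the spread estimated in the same fit. Besides Cxcr4, Jun, Egr1, Dusp4 and Btg2 (above), the genes described here that were called in naive cells too were Tanc1 (-1.32), Rnpep (-0.84), Top2a (-0.84), Vcam1 (-0.80), Hmox1 (-0.45) and Zfp950 (0.75). The difference of the 2 contrasts was called for 19 autosomal genes (0.11%), 11 higher (0.0638%) and 8 lower (0.0464%), and 7 of these were among the 291. Ctse, Pik3ap1 and Itgae differed more between the IMP groups, by 2.77 ± 0.36 (adjusted p = 0.0179), 2.47 ± 0.21 (adjusted p = 0.000426) and 2.51 ± 0.31 (adjusted p = 0.0113). Ppfia4, Cdh5, Bambi-ps1 and Nek6 fell more, by 2.56 ± 0.29, 2.07 ± 0.29, 1.73 ± 0.27 and 1.38 ± 0.20 (adjusted p = 0.00624, 0.0276, 0.0484 and 0.0364). Nek6, a kinase of mitotic spindle formation, and the pseudogene Bambi-ps1 were named after their values were seen.

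**Figure D5:**
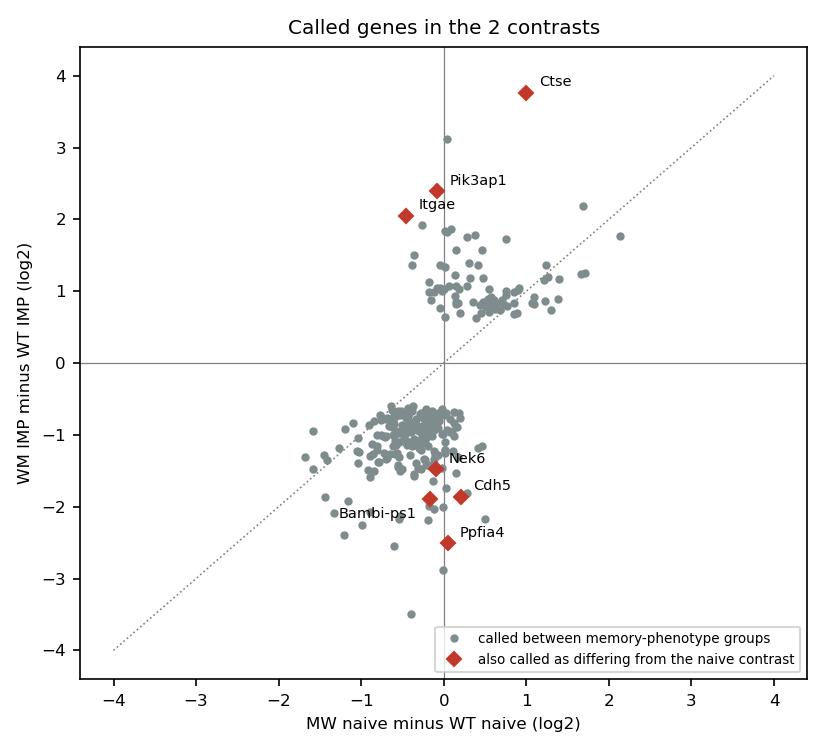
Log2 difference of WM IMP minus WT IMP (vertical axis) against that of MW naive minus WT naive (horizontal axis) for the 291 called autosomal genes, with the dotted line at equality. The 7 genes in red were also called in the test of the difference between both contrasts and lie far from the line.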

How the data were processed

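Biotin-labelled RNA, made from 30 ng of total RNA per the labels' protocols, was measured on 11 arrays of 4 groups taken from the sample titles. The authors deposited log2 values with the average of the 3 WT naive arrays set to 0: a table of 27800 gene rows, quantile normalized per its file name, and a probe-set matrix made with RMA per the submitters' processing notes. The log base is not stated and was taken as 2, as RMA usually gives. Without brightness, background and absolute level are unknown. Precision is limited by how many arrays there are.

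Rows naming 1 gene (20404) were kept, and rows naming several (1712) or none (5684) left out, which gave 20402 genes. Symbols of 2055 were updated from RefSeq (GRCm38.p6), in which 17877 genes were found, and genes with no autosome there are not reported. Some called genes counted in the totals are not reported here by name. Probe sets were assigned to genes through the identifiers in the gene table (37514 probe sets). Between both tables, an array's own columns had correlations of 0.898 or more.

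For the tests, limma 3.58.1 (R 4.3.3; lmFit, eBayes) modelled the 11 arrays by their 4 groups. Benjamini-Hochberg adjustment covered the 20402 genes together. The methods were tested on simulated data. Other work used Python 3.11.15 and matplotlib 3.10.9. Named genes were the 15 called genes that rose most and the 15 that fell most without overlapping arrays, at most 4 called genes per list (31 gene lists and 13 marker lists) and fixed lineage genes; uncalled list members, Spi1, Nek6, Bambi-ps1 and the genes near Ptprc were named after their values were seen. The genes, lists and tests were chosen with earlier results of these data known. Alternatives changed the normalization table, model, covariates, thresholds and arrays.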

Additional observations from a re-analysis of the deposited data

Results flagged for a closer look

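The difference of WM IMP minus WT IMP was unlike that of MW naive minus WT naive (limma's interaction test, adjusted p under 0.05) for 7 of the genes named. The chimeras of these contrasts also differ in donor and host genotype, sorted CD45 allele and sex signal. These cannot be told apart from a difference between IMP and naive cells. The log2 difference of the 2 contrasts was 2.77 for Ctse, 2.51 for Itgae and 2.47 for Pik3ap1, and -2.56 for Ppfia4, -2.07 for Cdh5, -1.73 for Bambi-ps1 and -1.38 for Nek6.

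Y-linked genes, which lie outside the autosomal comparison, gave signal on all 3 WM IMP arrays although the labels call donors and hosts female. Above WT IMP they stood by 5.45 for Ddx3y, 4.78 for Eif2s3y, 3.57 for Kdm5d and 1.17 for Uty on the log2 scale. No group has enough arrays for a test of outlying arrays.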

How the results depend on the processing

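The count of 291 genes called between WM IMP and WT IMP depended on the arrays, genes, model, covariates, cutoffs and unit tested. It was 6 in a fit to the 5 IMP arrays alone, 12 on the arrays with low poly-A controls, 4 with the hybridization controls as a covariate, 171 with the actin 5′ minus 3′ difference as a covariate, 37 at an adjusted p under 0.01, 152 with a 2-fold minimum, 725 without the less variable genes and 649 where each RMA probe set was tested by itself. With the replicate number as a block it was 136, and leaving out 1 array gave 10 to 792. The interaction gave 19 genes, 10 with the replicate block, 7 in the RMA mean, 5 at an adjusted p under 0.01 and 4 to 84 with 1 array left out. Replicate numbers did not pair the arrays: deviations of same-numbered arrays correlated at between -0.29 and 0.18. Array weights, centring, robust estimation, adjustment over autosomal genes, a block for the poly-A controls and the Gapdh difference kept the count within 1.5 times. Where a setting changed a count other than by using fewer arrays or genes, the cause was not tested. Some uncalled genes changed sign: Cd3e in the RMA mean (-0.080), with the actin covariate (-0.071) and with 1 array left out (-0.044 to 0.106), Cd4 (-1.24) and Cd44 (0.43) with the hybridization covariate, Egr2 in the RMA mean (-0.071) and Zbtb16 on the arrays with low poly-A controls (0.011).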

Other observations

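The lists of glycolysis, the BCL2 family, inhibitory receptors, costimulatory receptors and GIMAP genes gave 0 calls by limma, beside a median difference of -0.05 over all genes. Among 15 autosomal genes of glycolysis the median difference of WM IMP minus WT IMP was -0.07, with 1 higher and 2 lower at an unadjusted p under 0.05. Over all autosomal genes 5.56% were higher and 11.6% lower at that threshold. The 14 genes of the BCL2 family, which govern cell death, had a median of 0.03, with 2 higher and 0 lower. Inhibitory receptors and their ligands (13 genes) had a median of -0.07 and costimulatory receptors and ligands (17 genes) -0.01. The 8 GIMAP genes, small GTPases of lymphocyte survival, had a median of -0.25, with 4 lower and 1 higher at an unadjusted p under 0.05. Of 13 genes of thymocytes and recent thymic emigrants, Sox4, a transcription factor of immature lymphocytes, fell by 0.86 (adjusted p = 0.0415), 0 rose and 12 did not pass, with a median of 0.04. Sox4 lost its call without either WT IMP array and in the RMA mean.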
